A study of Homo sapiens with 12 samples.

Results

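The genes described here encode the histone lysine methyltransferases and demethylases, the enzymes that add or remove methyl groups on lysines of histones H3 and H4. They were chosen by name: every protein-coding gene in the count table whose symbol is *KDM*, *KMT* or *SETD* followed by a digit, together with *EZH1*, *EZH2*, *NSD1*, *EHMT1*, *EHMT2*, *SUV39H1*, *SUV39H2*, *DOT1L* and *ASH1L*. The rule uses no measured value and takes 46 of the 58288 genes in the table. Of these, 26 encode methyltransferases or SETD proteins and 20 encode demethylases. It is a rule about names, so it also takes proteins such as SETD3, whose known substrate is actin, and *KMT2E*, whose product is thought to have no methyltransferase activity.

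Most of the methyltransferases carry a catalytic SET domain, and DOT1L is the exception. Demethylases are either flavin-dependent amine oxidases of the LSD family or oxygen-dependent enzymes with a Jumonji C (JmjC) domain. Methylation of H3K4, H3K36 and H3K79 accompanies transcription, whereas methylation of H3K9, H3K27 and H4K20 is linked to silencing, and several of these enzymes are known for roles in myeloid differentiation, leukemia and inflammatory gene expression.

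RNA was sequenced from HL-60/S4, a cell line derived from an acute myeloid leukemia with promyelocyte features, in 12 libraries after ribosomal RNA depletion. Undifferentiated promyelocytes, and granulocytes obtained by adding ATRA (all-trans retinoic acid, 1 µM) for 4 days, were each given 16 ng/mL TNF-α, a cytokine that activates NF-κB, or the same volume of water (vehicle) for 2 h, with 3 flasks in each of the 4 groups. All cells were at passage 8 in medium with added calcium and came from the same line, so the spread between libraries is that between flasks and not between donors. Each cell type was treated in an experiment of its own. Levels of the 2 cell types are therefore given without a test, because cell type and experiment cannot be told apart. The same limit holds for differences between their responses to TNF-α, which were tested.

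Library totals were between 22829189 and 31895061 read pairs on genes, and 3 counts, the floor used here, stood at 0.0941 to 0.131 CPM, the counts of a gene scaled to the size of its library, over the 12 libraries. Summed promyelocyte markers were at 7339 to 8167 CPM in promyelocytes with vehicle and at 2144 to 2357 CPM in granulocytes with vehicle. Summed granulocyte markers were at 331 to 347 and at 5922 to 6190 CPM. Macrophage markers summed to at most 51.3 CPM in any library, with *MARCO* and *MSR1* at 0 throughout, and all 16 measured early NF-κB targets rose with TNF-α in both cell types, among them the anti-apoptotic *BIRC3* with log2 fold changes of 5.58 (edgeR adjusted p = 4.77e-19) and 8.31 (edgeR adjusted p = 2.28e-39). In bulk RNA, fewer cells of a type and less RNA per cell cannot be told apart.

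Of the 46 genes, 43 had enough counts for a test in promyelocytes and 42 in granulocytes. *KDM4E* and *KDM4F* were at 0 in every library, *KDM5D* was not tested in either cell type, and *KDM4D* was tested only in promyelocytes. In promyelocytes 8 of the 43 rose with TNF-α and 7 fell at an adjusted p under 0.05 (edgeR's quasi-likelihood test, Benjamini-Hochberg over all genes tested), against a background of 8.15% of all 16250 tested genes that rose and 6.65% that fell. In granulocytes 14 of the 42 rose and 10 fell, where 24.4% of all 16944 tested genes rose and 24.8% fell. The median log2 fold change of the genes tested was -0.03 in promyelocytes and 0.01 in granulocytes, and that of all genes was -0.01 and -0.0047. The changes were mostly modest. Log2 fold changes ran from -0.44 to 0.48 in promyelocytes and from -0.82 to 1.77 in granulocytes.

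Vehicle and TNF-α libraries did not overlap for 22 of 43 genes in promyelocytes (10 with TNF-α above, 12 below), beside 31.1% of all tested genes, and for 27 of 42 in granulocytes (16 above, 11 below), beside 55.2%. Of the 42 genes tested in both, 9 were called with 1 sign in both cell types, against 10.5% of all genes tested in both. They were *ASH1L*, *DOT1L*, *EZH2*, *KDM2A*, *KDM6B*, *KMT2E* and *SETD5*, which rose, and *EHMT2* and *KDM3A*, which fell. Only *KDM5B* was called in opposite directions, against 1.2% of all genes. A further 14 were called in granulocytes and not in promyelocytes, 5 in promyelocytes and not in granulocytes, and 13 in neither. The shares of all genes in these last classes were not counted, so these counts have no background beside them.

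**Figure D1:**
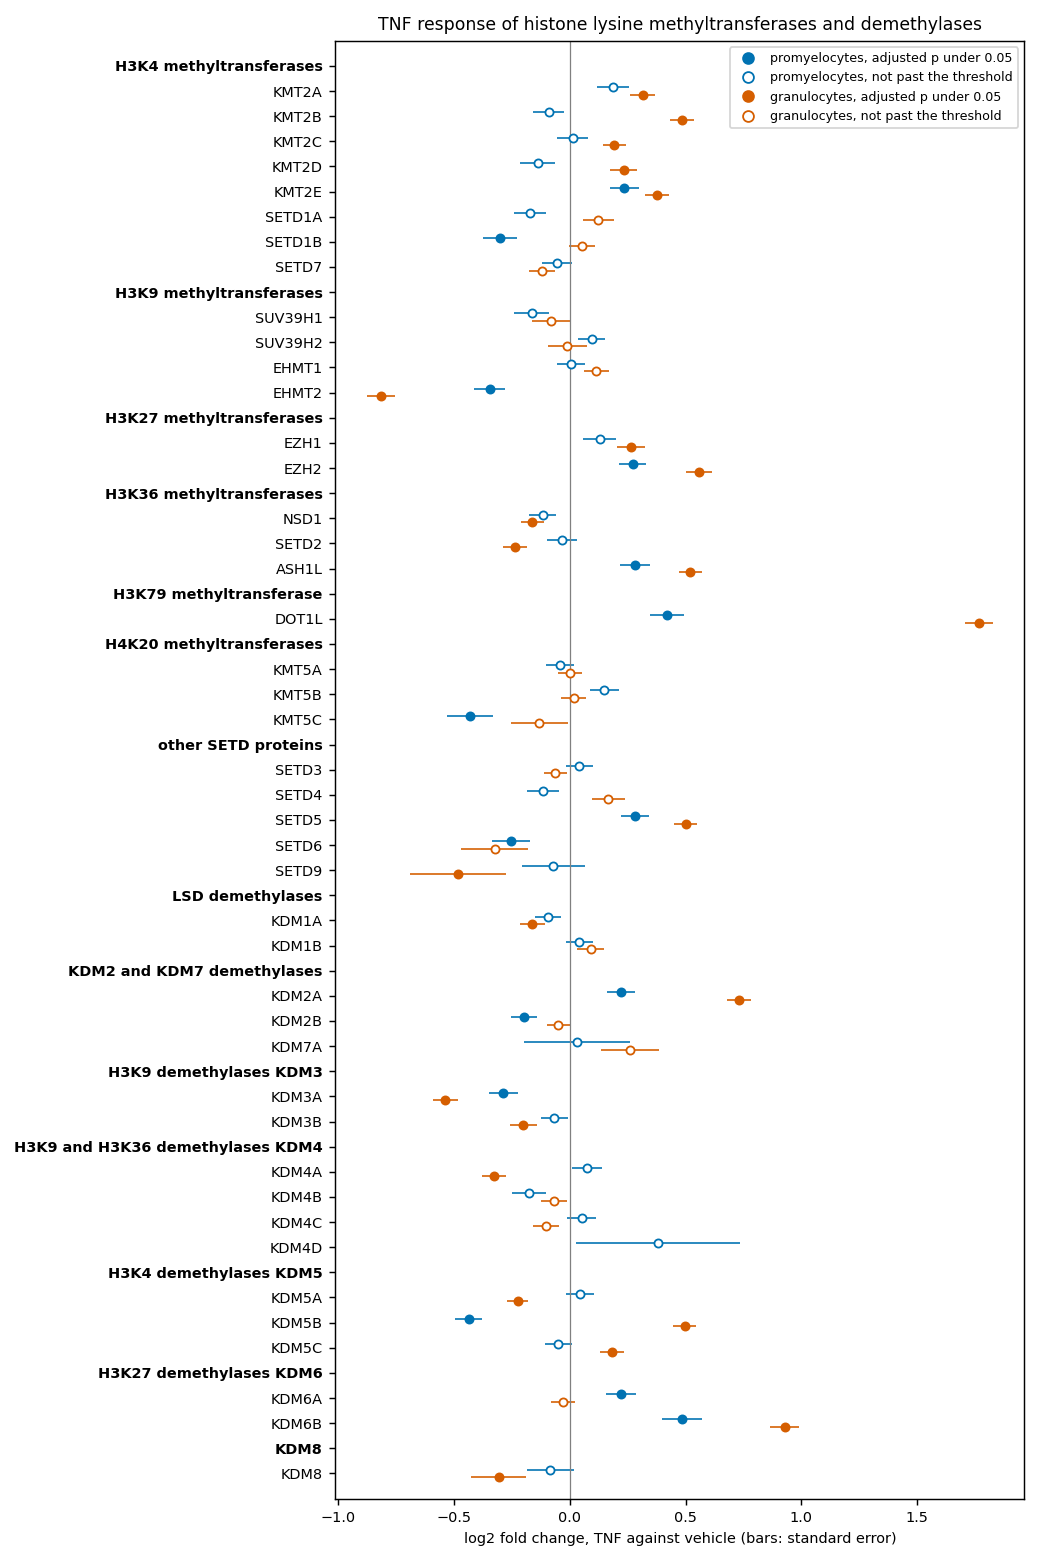
Log2 fold change of TNF-α against vehicle (x axis) for each tested gene, grouped by the role of its product (y axis), in promyelocytes (blue) and granulocytes (orange). Points are the edgeR estimates from 3 against 3 libraries, bars are 1 standard error, and filled points have an adjusted p under 0.05. *DOT1L* in granulocytes stands farthest to the right at 1.77, *EHMT2* in granulocytes farthest to the left at -0.82, and *KDM5B* lies on opposite sides of zero in the 2 cell types.

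Because TNF-α acts through NF-κB, the promoters of the family were searched on both strands for an NF-κB motif of 10 bases. The pattern was a loose one that allows more than 1 letter at some positions. RefSeq windows of 250 bases before to 50 bases after each annotated start (GRCh38.p14) were used. Windows were found for 43 of the 46 genes. The motif was in 8 of their 61 windows (13.1%) and in 3956 of all 35116 windows (11.3%). The 8 genes were *KDM6B* and *SETD5*, which rose in both cell types, *KMT2B*, which rose in granulocytes, *KDM2B* and *SETD6*, which fell in promyelocytes, *SETD9*, which fell in granulocytes, and *KMT5A* and *SETD3*, which passed in neither. A match is a description of the letters and not of a bound site. The match of *KDM6B* printed below begins with GGA, and those of *SETD5* and *SETD6* begin with GGG. The 180 bases that end just before the first annotated base of 3 of them are shown, the 2 that rose in both cell types and 1 that fell, on the plus strand with the motif in capitals.
SETD5 (chr3:9397435-9397614): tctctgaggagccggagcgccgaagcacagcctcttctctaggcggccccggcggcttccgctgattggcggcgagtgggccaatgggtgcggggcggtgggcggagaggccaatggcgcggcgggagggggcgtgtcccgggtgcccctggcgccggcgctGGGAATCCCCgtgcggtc
KDM6B (chr17:7839724-7839903): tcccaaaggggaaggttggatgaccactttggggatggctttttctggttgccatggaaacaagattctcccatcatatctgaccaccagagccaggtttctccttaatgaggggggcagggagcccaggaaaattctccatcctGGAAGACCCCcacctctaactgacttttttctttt
SETD6 (chr16:58515299-58515478): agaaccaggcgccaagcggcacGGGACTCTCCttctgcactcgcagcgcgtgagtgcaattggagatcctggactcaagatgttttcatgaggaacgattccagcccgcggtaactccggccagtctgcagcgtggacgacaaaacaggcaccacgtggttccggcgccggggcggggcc
The motif ends 9 bases before the first annotated base of *SETD5*, 26 bases before that of *KDM6B* and 149 bases before that of *SETD6*. The *SETD5* stretch holds 22 CpG pairs, the *SETD6* stretch 17 and the *KDM6B* stretch 0.

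*DOT1L* encodes the only known H3K79 methyltransferase, an enzyme that travels with elongating RNA polymerase II and is a dependency of leukemias with *KMT2A* fusions. In granulocytes the gene (chr19:2164149-2232578, plus strand, hg38) showed the widest change of the family. Its normalised read counts in promyelocytes were 178, 175 and 160 CPM with vehicle and 214, 210 and 263 CPM with TNF-α. In granulocytes they were 98.8, 116 and 121 CPM with vehicle and 413, 368 and 362 CPM with TNF-α. The groups did not overlap in either cell type, and the lowest granulocyte library with TNF-α stood far above the highest with vehicle. The edgeR log2 fold change was 0.42 ± 0.0752 (SE, n = 3 per group; edgeR adjusted p = 0.000466) in promyelocytes and 1.77 ± 0.0603 (edgeR adjusted p = 2.05e-24), a 3.41-fold increase, in granulocytes. In granulocytes 2.57% of all tested genes had a higher log2 fold change. The difference between the responses, tested as the interaction over all 12 libraries, was 1.39 ± 0.112 (edgeR adjusted p = 3.98e-10).

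The H3K27 enzymes act against each other: EZH1 and EZH2 are the alternative catalytic subunits of Polycomb repressive complex 2 (PRC2), and KDM6A (UTX) and KDM6B (JMJD3) remove the mark they make. *KDM6B*, known as an early response gene of inflammatory macrophages, lies on chromosome 17 (chr17:7839904-7854796, plus strand, hg38). Its promoter stretch is printed above. It was at 26.3, 29.9 and 25.8 CPM in promyelocytes with vehicle and at 35.7, 35.0 and 43.8 CPM with TNF-α. Granulocyte libraries were at 47.5, 48.7 and 52.1 CPM with vehicle and at 105, 93.2 and 84.1 CPM with TNF-α. All TNF-α libraries lay above all vehicle libraries of their cell type. Its log2 fold change was 0.48 ± 0.0871 (edgeR adjusted p = 0.000491) in promyelocytes, the highest of the family there, and 0.93 ± 0.0622 (edgeR adjusted p = 1.99e-15) in granulocytes. The response was larger in granulocytes by 0.48 ± 0.119 (edgeR adjusted p = 0.00343), but with GC and length trends removed that difference was 0.20 (edgeR adjusted p = 0.0984).

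*KDM6A* moved little. It rose in promyelocytes, from 47.2 ± 2.4 to 55.1 ± 2.03 CPM (mean ± SD, n = 3), a log2 fold change of 0.22 ± 0.0634 (edgeR adjusted p = 0.0216). After differentiation it was at 80.6 ± 1.49 and 79 ± 2.98 CPM (log2 fold change -0.03, edgeR adjusted p = 0.664), and the interaction was -0.21 ± 0.0785 (edgeR adjusted p = 0.0485). The promyelocyte call was lost without vehicle replicate 1 or 2 or TNF-α replicate 1 or 2 (log2 fold changes 0.20 to 0.21, edgeR adjusted p 0.0525 to 0.127), and the interaction was lost without any of 9 of the 12 libraries (-0.23 to -0.19, edgeR adjusted p 0.0628 to 0.127).

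*EZH2* (chr7:148807383-148884321, minus strand, hg38) rose alongside the demethylase. Promyelocytes had 96.3, 104 and 108 CPM with vehicle and 121, 126 and 125 CPM with TNF-α, and granulocytes had 62.4, 63.2 and 60.9 CPM with vehicle and 88.4, 87.4 and 98.7 CPM with TNF-α. No TNF-α library reached down to a vehicle library of its cell type. The log2 fold change was 0.27 ± 0.0596 (edgeR adjusted p = 0.00321) in promyelocytes and 0.56 ± 0.0546 (edgeR adjusted p = 5.82e-11) in granulocytes, and the difference was 0.32 ± 0.0790 (edgeR adjusted p = 0.00316). Its paralog *EZH1* rose in granulocytes from 36.4 ± 0.555 to 43.7 ± 2.27 CPM (log2 fold change 0.27 ± 0.0601, edgeR adjusted p = 0.000342). In promyelocytes the *EZH1* log2 fold change was 0.13 ± 0.0711 (edgeR adjusted p = 0.258). Among 11 other PRC2 subunits and regulators, 10 were tested. In promyelocytes 3 rose and 1 fell, against 8.15% and 6.65% of all tested genes. In granulocytes 3 rose and 1 fell, against 24.4% and 24.8%. *EPOP*, a PRC2 cofactor, rose from 3.60 ± 0.603 to 18.2 ± 2.08 CPM in granulocytes (log2 fold change 2.34, edgeR adjusted p = 4.01e-19), and the Tudor protein gene *PHF1* rose by 0.65 in promyelocytes (edgeR adjusted p = 3.86e-06) and by 1.17 in granulocytes (edgeR adjusted p = 1.8e-15). *JARID2*, which encodes a JmjC-related PRC2 subunit without demethylase activity, fell in both cell types, by 0.20 (edgeR adjusted p = 0.022) and by 0.54 on the log2 scale (edgeR adjusted p = 6.21e-11).

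**Figure D2:**
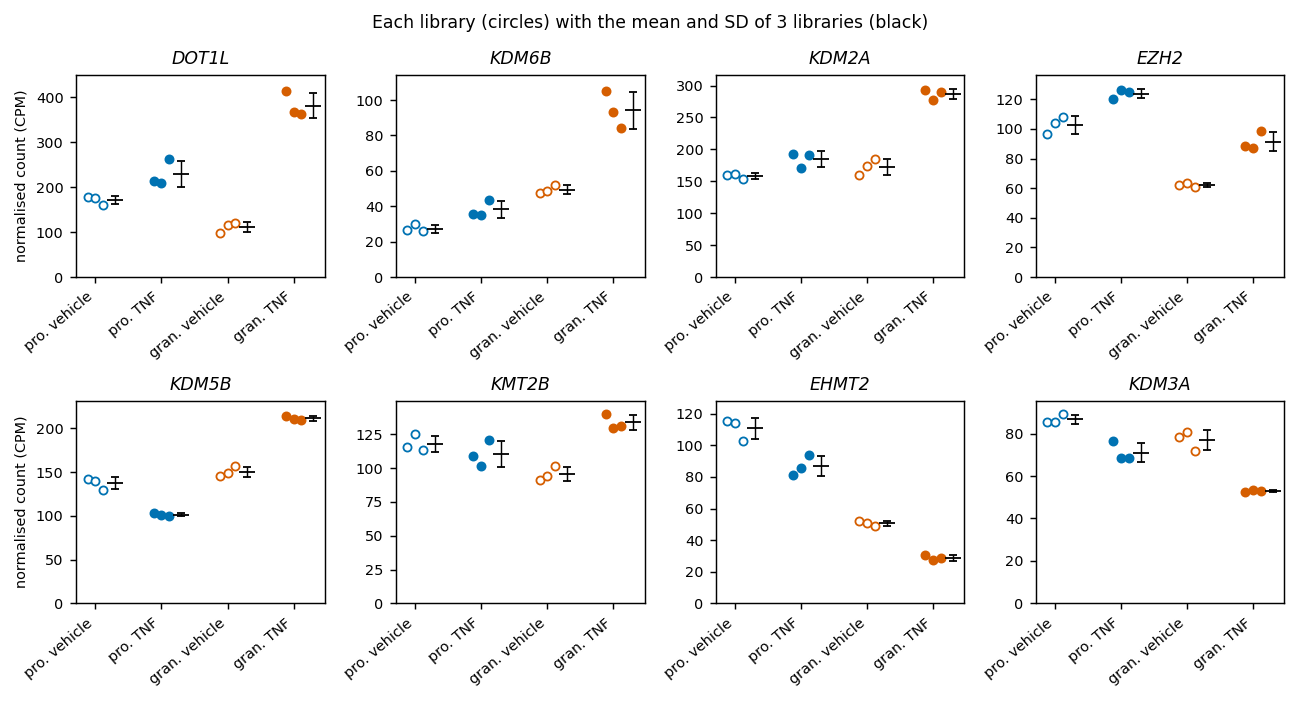
Normalised read counts (CPM, y axis, starting at 0) of 8 genes in promyelocytes (blue, "pro.") and granulocytes (orange, "gran.") with vehicle (open circles) and TNF-α (filled circles). Each circle is 1 library, and the black mark is the mean with the SD of 3 libraries. Library sizes were scaled within each cell type. In granulocytes the TNF-α circles of *DOT1L* (362 to 413 CPM) stand far above the vehicle circles (98.8 to 121 CPM), and the TNF-α circles of *KDM5B* lie below vehicle in promyelocytes and above it in granulocytes.

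The H3K4 methyltransferases comprise the large MLL-type proteins KMT2A to KMT2D, the related KMT2E, SETD1A and SETD1B of the SET1 complexes, and SETD7. In granulocytes 5 of these 8 rose and 0 fell with edgeR (1 was lower at an unadjusted p under 0.05, and 0 fell with DESeq2), where 24.4% of all tested genes rose and 24.8% fell. In promyelocytes 1 rose and 1 fell, against 8.15% and 6.65% of all tested genes. Removing the trends with GC content and length changed the granulocyte count to 4 that rose and 2 that fell. *KMT2B* (chr19:35718019-35738878, plus strand, hg38) was at 115, 125 and 113 CPM in promyelocytes with vehicle and at 109, 102 and 121 CPM with TNF-α, so these groups overlapped. Granulocytes stood at 91.5, 93.8 and 102 CPM with vehicle and at 140, 130 and 131 CPM with TNF-α, without overlap. Its log2 fold change was -0.09 ± 0.0668 (edgeR adjusted p = 0.422) in promyelocytes and 0.48 ± 0.0519 (edgeR adjusted p = 5.59e-10) in granulocytes. The responses differed by 0.61 ± 0.0889 (edgeR adjusted p = 8.3e-06), and by 0.31 with the GC and length trends removed (edgeR adjusted p = 0.000655).

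*KMT2E* rose in both cell types. Its libraries were at 121, 129 and 135 CPM with vehicle and 161, 143 and 148 CPM with TNF-α in promyelocytes, and at 170, 190 and 191 CPM with vehicle and 250, 231 and 235 CPM with TNF-α in granulocytes. The groups did not overlap in either. The edgeR log2 fold change was 0.23 ± 0.0626 (edgeR adjusted p = 0.0139) and 0.38 ± 0.0514 (edgeR adjusted p = 1e-07). The promyelocyte call was lost without vehicle replicate 1 or 2 or TNF-α replicate 1 (log2 fold changes 0.19 to 0.24, edgeR adjusted p 0.0606 to 0.0786). *SETD1B* was at 134, 149 and 136 CPM with vehicle and 114, 99.6 and 126 CPM with TNF-α in promyelocytes, and at 151, 170 and 175 CPM with vehicle and 189, 160 and 166 CPM with TNF-α in granulocytes. It fell in promyelocytes, where the groups did not overlap, by 0.30 ± 0.0738 on the log2 scale (edgeR adjusted p = 0.00771), a call lost without vehicle replicate 2 (-0.25, edgeR adjusted p = 0.0683) or TNF-α replicate 2 (-0.21, edgeR adjusted p = 0.0663). In granulocytes, where the groups overlapped, the log2 fold change was 0.05 (edgeR adjusted p = 0.468) as counted and -0.12 with the GC and length trends removed (edgeR adjusted p = 0.0327).

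In granulocytes *KMT2A* rose by 0.32 ± 0.0538 (edgeR adjusted p = 6.09e-06), *KMT2C* by 0.19 ± 0.0512 (edgeR adjusted p = 0.00192) and *KMT2D* by 0.23 ± 0.0588 on the log2 scale (edgeR adjusted p = 0.00113). For *KMT2D* the call ended with GC and length trends removed (0.10, edgeR adjusted p = 0.071) and with DESeq2 (adjusted p = 0.0639). *KMT2C* has near-identical pseudogene copies, so its counts are uncertain. The pseudogenes *KMT2CP1* to *KMT2CP5* were themselves at 0.214 CPM or less in any library. In promyelocytes none of these 3 passed the test, with log2 fold changes of 0.19, 0.01 and -0.14, although *KMT2A* passed with DESeq2 (adjusted p = 0.0449). *SETD1A* and *SETD7*, whose product also methylates non-histone proteins, passed in neither cell type. Of 13 non-catalytic partners in the COMPASS complexes, 0 passed in promyelocytes with edgeR, while 1 was higher and 5 were lower at an unadjusted p under 0.05 and 1 fell with DESeq2. Of all tested genes 8.15% rose and 6.65% fell in promyelocytes. In granulocytes 2 partners rose and 5 fell, against 24.4% and 24.8%. The subunit gene *ASH2L* fell by 0.40 (edgeR adjusted p = 4.87e-08) and the chromatin reader gene *PSIP1* by 0.47 (edgeR adjusted p = 1.27e-06), while the adaptor genes *NCOA6* and *WDR5* rose by 0.29 (edgeR adjusted p = 2.44e-05) and 0.23 on the log2 scale (edgeR adjusted p = 0.00128). The *WDR5* call ended with GC and length trends removed (0.12, edgeR adjusted p = 0.0772).

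The KDM5 family removes H3K4 methylation. *KDM5B* (chr1:202724491-202809470, minus strand, hg38), whose product is a transcriptional corepressor, was at 142, 140 and 129 CPM in promyelocytes with vehicle and at 103, 101 and 100 CPM with TNF-α. In granulocytes it was at 145, 149 and 157 CPM with vehicle and at 215, 211 and 209 CPM with TNF-α. The groups did not overlap in either cell type, with TNF-α below vehicle in promyelocytes and above it in granulocytes. Its log2 fold change was -0.44 ± 0.0583 (edgeR adjusted p = 1.56e-05) and 0.50 ± 0.0483 (edgeR adjusted p = 4.94e-11), and the difference was 0.97 ± 0.0756 (edgeR adjusted p = 1.99e-10). Scaled over all 12 libraries and per exon length (RPKM), vehicle levels were close, at 11.4 ± 0.720 before and 12.4 ± 0.464 after differentiation, without a test.

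The paralog *KDM5A* fell in granulocytes from 246 ± 6.07 to 210 ± 0.937 CPM (log2 fold change -0.23 ± 0.0473, edgeR adjusted p = 0.000128), and the X-linked *KDM5C* rose there from 131 ± 8.51 to 148 ± 5.21 CPM (0.18 ± 0.0516, edgeR adjusted p = 0.00331). Neither passed in promyelocytes, at 0.05 (edgeR adjusted p = 0.676) and -0.05 (edgeR adjusted p = 0.639). The LSD-family gene *KDM1A*, whose product removes H3K4 methylation in corepressor complexes with GFI1, fell in granulocytes from 73.4 ± 1.49 to 65.7 ± 3.11 CPM (log2 fold change -0.16 ± 0.0535, edgeR adjusted p = 0.0114). That call was lost without TNF-α replicate 2 (-0.13, edgeR adjusted p = 0.0976) or TNF-α replicate 3 (-0.14, edgeR adjusted p = 0.053). *KDM1B* passed in neither cell type. Of 10 other LSD1 complex genes, 8 were tested, with 1 risen and 1 fallen in promyelocytes and 2 risen and 3 fallen in granulocytes. Of all tested genes 8.15% rose and 6.65% fell in promyelocytes, and 24.4% rose and 24.8% fell in granulocytes. The reader gene *PHF21A* rose in both cell types, by 0.28 (edgeR adjusted p = 0.0159) and 0.17 on the log2 scale (edgeR adjusted p = 0.00789), the deacetylase gene *HDAC2* rose in granulocytes by 0.19 (edgeR adjusted p = 0.00184), and the scaffold gene *RCOR1* fell there by 0.22 (edgeR adjusted p = 0.000432). *GFI1*, the repressor that recruits the complex in myeloid cells, fell from 236 ± 4.00 to 51.2 ± 1.22 CPM in granulocytes (log2 fold change -2.21 ± 0.051, edgeR adjusted p = 6.97e-30) and from 192 ± 2.17 to 157 ± 2.71 CPM in promyelocytes (-0.29 ± 0.0543, edgeR adjusted p = 0.000861).

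The H3K9 methyltransferases were represented by *SUV39H1*, *SUV39H2*, *EHMT1* and *EHMT2*. As counted, 1 of the 4 was called, as a fall in both cell types. Of all tested genes 6.65% fell in promyelocytes and 24.8% in granulocytes. With GC and length trends removed, *SUV39H1* also fell in granulocytes (-0.21, edgeR adjusted p = 0.0225). *EHMT2* (chr6:31879759-31897687, minus strand, hg38) encodes G9a, which forms a dimer with the *EHMT1* product GLP and makes mono- and dimethylated H3K9. It was at 115, 114 and 103 CPM in promyelocytes with vehicle and at 81.6, 85.7 and 93.9 CPM with TNF-α. Granulocyte libraries were at 51.9, 50.7 and 49.2 CPM with vehicle and at 30.5, 27.2 and 28.6 CPM with TNF-α. Every TNF-α library was below every vehicle library of its cell type. The log2 fold change was -0.35 ± 0.0662 (edgeR adjusted p = 0.0009) in promyelocytes and -0.82 ± 0.0616 (edgeR adjusted p = 5.92e-14) in granulocytes, the lowest of the family there, and the responses differed by -0.43 ± 0.0941 (edgeR adjusted p = 0.00112). The partner gene *EHMT1* had 81.0 ± 1.53 and 81.2 ± 4.10 CPM in promyelocytes (log2 fold change 0.00, edgeR adjusted p = 0.977). In granulocytes it had 97.8 ± 4.02 and 106 ± 7.14 CPM (log2 fold change 0.12, 95% interval 0.01 to 0.22, edgeR adjusted p = 0.0744).

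*SUV39H1* and *SUV39H2*, which make trimethylated H3K9 of heterochromatin, passed in neither cell type, with log2 fold changes of -0.16 and 0.10 in promyelocytes and -0.08 and -0.01 in granulocytes. Among 19 methyltransferase genes that the naming rule does not take, such as the SETDB, SMYD, PRDM and PRMT genes, 15 were tested. Of these 1 rose and 1 fell in promyelocytes, against 8.15% and 6.65% of all tested genes. In granulocytes 4 rose and 4 fell, against 24.4% and 24.8%. The H3K9 methyltransferase gene *SETDB2* fell in both cell types, from 92.4 ± 7.10 to 74.6 ± 5.30 CPM in promyelocytes (log2 fold change -0.31, edgeR adjusted p = 0.00358) and from 66.1 ± 1.81 to 30.4 ± 0.413 CPM in granulocytes (-1.12, edgeR adjusted p = 6.81e-19). The arginine methyltransferase gene *PRMT1* rose in both, by 0.22 (edgeR adjusted p = 0.0236) and 0.68 on the log2 scale (edgeR adjusted p = 4.57e-14), and in granulocytes *PRMT6* fell by 0.44 (edgeR adjusted p = 2.07e-05) and *SMYD5* rose by 0.23 on the log2 scale (edgeR adjusted p = 0.00665), a call that ended with GC and length trends removed (0.13, edgeR adjusted p = 0.102).

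Among the H3K9 demethylases of the KDM3 and KDM4 families 0 rose in either cell type with edgeR, at an unadjusted p under 0.05 or with DESeq2. Of all tested genes 8.15% rose in promyelocytes and 24.4% in granulocytes with edgeR. *KDM3A* (chr2:86440647-86492716, plus strand, hg38), which encodes a demethylase of mono- and dimethylated H3K9, was at 85.5, 85.4 and 89.1 CPM in promyelocytes with vehicle and at 76.3, 68.5 and 68.4 CPM with TNF-α. After differentiation it was at 78.2, 80.7 and 71.9 CPM with vehicle and at 52.7, 53.3 and 53.0 CPM with TNF-α. The TNF-α libraries were below vehicle without overlap in both cell types. The edgeR log2 fold change was -0.29 ± 0.0620 (edgeR adjusted p = 0.00284) and -0.54 ± 0.0553 (edgeR adjusted p = 1.93e-10). The difference between them, -0.21 ± 0.0821, did not pass (edgeR adjusted p = 0.0611). It did pass under 4 of 5 alternatives, at -0.26 with DESeq2 size factors (edgeR adjusted p = 0.0204), -0.30 without the expression filter (edgeR adjusted p = 0.0091), -0.27 with DESeq2 (adjusted p = 0.00962) and -0.21 with GC and length trends removed (edgeR adjusted p = 0.0264). *KDM3B* fell in granulocytes from 112 ± 10.5 to 97.9 ± 3.50 CPM (log2 fold change -0.20 ± 0.0564, edgeR adjusted p = 0.00328), a call lost without vehicle replicate 3 (-0.14, edgeR adjusted p = 0.0514).

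*KDM4A* (chr1:43650158-43705515, plus strand, hg38) encodes a demethylase of trimethylated H3K9 and H3K36. It was at 61.1, 64.4 and 69.8 CPM in promyelocytes with vehicle and at 69.2, 65.3 and 71 CPM with TNF-α, with overlap. Granulocytes stood at 96.0, 93.2 and 100 CPM with vehicle and at 76.2, 76.0 and 78.2 CPM with TNF-α, without overlap. Its log2 fold change was 0.07 ± 0.0645 (edgeR adjusted p = 0.515) and -0.33 ± 0.0512 (edgeR adjusted p = 1.28e-06), and the responses differed by -0.36 ± 0.0795 (edgeR adjusted p = 0.0011). *KDM4B* and *KDM4C* passed in neither cell type, and *KDM4D* never exceeded 1.37 CPM.

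The H3K36 methyltransferases moved in different directions. *ASH1L* (chr1:155335268-155562807, minus strand, hg38), which encodes a Trithorax-group enzyme that dimethylates H3K36, was at 151, 174 and 174 CPM with vehicle and 212, 193 and 201 CPM with TNF-α in promyelocytes. In granulocytes it was at 182, 193 and 193 CPM with vehicle and 281, 275 and 258 CPM with TNF-α. The groups did not overlap in either. The log2 fold change was 0.28 ± 0.0648 (edgeR adjusted p = 0.00441) and 0.52 ± 0.0495 (edgeR adjusted p = 2.79e-11). *SETD2*, the gene of the enzyme that trimethylates H3K36, was at 89.3, 96.9 and 99.0 CPM with vehicle and 96.3, 86.6 and 95.6 CPM with TNF-α in promyelocytes, with overlap (log2 fold change -0.03, edgeR adjusted p = 0.779). Granulocyte libraries were at 97.6, 100 and 98.6 CPM with vehicle and 80.7, 83.3 and 87.6 CPM with TNF-α, without overlap, and it fell by 0.24 ± 0.051 on the log2 scale (edgeR adjusted p = 0.000176). *NSD1*, which encodes another H3K36 dimethyltransferase, fell in granulocytes from 240 ± 14.5 to 214 ± 5.10 CPM (-0.16 ± 0.0502, edgeR adjusted p = 0.00699). That call was lost without vehicle replicate 3 (-0.13, edgeR adjusted p = 0.0628) or TNF-α replicate 2 (-0.14, edgeR adjusted p = 0.0657).

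KDM2A and KDM2B remove H3K36 methylation and bind unmethylated CpG islands through a zinc finger. *KDM2A* (chr11:67119269-67258087, plus strand, hg38) was at 160, 161 and 154 CPM in promyelocytes with vehicle and at 192, 170 and 191 CPM with TNF-α. After differentiation it was at 159, 174 and 184 CPM with vehicle and at 293, 278 and 290 CPM with TNF-α. The groups did not overlap in either cell type. The edgeR log2 fold change was 0.22 ± 0.0605 (edgeR adjusted p = 0.0173) and 0.73 ± 0.0519 (edgeR adjusted p = 9.58e-15), and the difference was 0.55 ± 0.0832 (edgeR adjusted p = 1.41e-05). The promyelocyte call was lost without vehicle replicate 2 or 3 or TNF-α replicate 1 or 3 (log2 fold changes 0.19 to 0.23, edgeR adjusted p 0.0583 to 0.0721). *KDM2B* fell in promyelocytes from 113 ± 1.28 to 98.5 ± 3.31 CPM (-0.20 ± 0.0565, edgeR adjusted p = 0.0211), a call lost without any library other than TNF-α replicate 3 (-0.21 to -0.17, edgeR adjusted p 0.0526 to 0.0993). In granulocytes its log2 fold change was -0.05 (edgeR adjusted p = 0.437). *KDM7A*, a JmjC gene at 1.47 to 7.43 CPM, passed in neither.

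Of the H4K20 methyltransferase genes, *KMT5C* fell in promyelocytes. It was at 12.3, 12.3 and 12.1 CPM with vehicle and 8.36, 9.56 and 9.27 CPM with TNF-α, without overlap (log2 fold change -0.43 ± 0.1, edgeR adjusted p = 0.00515). Granulocytes stood at 8.35, 7.28 and 10.0 CPM with vehicle and 7.74, 8.79 and 6.77 CPM with TNF-α, with overlap. The log2 fold change there was -0.13 ± 0.122 (edgeR adjusted p = 0.393), and -0.30 with the GC and length trends removed (edgeR adjusted p = 0.0318). *KMT5B*, which shares di- and trimethylation of H4K20 with it, and *KMT5A*, the H4K20 monomethyltransferase gene, passed in neither cell type. *KMT5A* has pseudogene copies, so its counts are uncertain. The pseudogenes *KMT5AP1* to *KMT5AP3* were themselves at 1.62 CPM or less in any library.

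The remaining SETD genes and *KDM8* completed the family. *SETD5* (chr3:9397615-9479240, plus strand, hg38), a gene linked to neurodevelopment and histone deacetylase complexes, was at 160, 180 and 174 CPM with vehicle and 219, 201 and 204 CPM with TNF-α in promyelocytes. In granulocytes it was at 150, 158 and 164 CPM with vehicle and 227, 215 and 225 CPM with TNF-α. Neither comparison showed overlap, and the log2 fold change was 0.28 ± 0.0609 (edgeR adjusted p = 0.00281) and 0.50 ± 0.0491 (edgeR adjusted p = 5.82e-11). *SETD6*, whose product methylates the NF-κB subunit RelA, was at 26.4, 24.7 and 28.1 CPM with vehicle and 22.5, 23.7 and 20.3 CPM with TNF-α in promyelocytes. Granulocyte libraries were at 5.97, 5.74 and 5.06 CPM with vehicle and 4.2, 5.18 and 3.88 CPM with TNF-α. The groups overlapped only in granulocytes. It fell in promyelocytes by 0.25 ± 0.0820 on the log2 scale (edgeR adjusted p = 0.0432). That call was lost with DESeq2 (-0.25, adjusted p = 0.0714) and with a replicate block (-0.25, edgeR adjusted p = 0.0934). It was also lost without any library other than TNF-α replicate 2 (-0.30 to -0.19, edgeR adjusted p 0.0505 to 0.166). In granulocytes its log2 fold change was -0.32 ± 0.144 (edgeR adjusted p = 0.0605).

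*SETD9* was sparse, at 6.20, 5.13 and 5.59 CPM with vehicle and 5.47, 5.59 and 5.08 CPM with TNF-α in promyelocytes (log2 fold change -0.07, edgeR adjusted p = 0.781). After differentiation it was at 2.62, 3.34 and 2.97 CPM with vehicle and 1.57, 2.29 and 2.53 CPM with TNF-α, without overlap. Its log2 fold change of -0.48 ± 0.206 stood at the threshold (edgeR adjusted p = 0.04997). The call was lost with DESeq2 (-0.48, adjusted p = 0.158) and with DESeq2 size factors. It was also lost with a replicate block (-0.49, edgeR adjusted p = 0.0506) and with GC and length trends removed (-0.47, edgeR adjusted p = 0.0575). Without vehicle replicate 2 or 3 or TNF-α replicate 1 or 2 it was lost too (-0.54 to -0.31, edgeR adjusted p 0.0637 to 0.243). *KDM8*, a JmjC gene also called *JMJD5*, was at 11.5, 12.2 and 12.8 CPM with vehicle and 10.8, 10.8 and 12.7 CPM with TNF-α in promyelocytes, and at 8.74, 7.44 and 9.31 CPM with vehicle and 7.69, 6.40 and 6.54 CPM with TNF-α in granulocytes. The groups overlapped in both. It fell in granulocytes by 0.31 ± 0.118 on the log2 scale (edgeR adjusted p = 0.0297), a call lost with DESeq2 (-0.30, adjusted p = 0.126) and without vehicle replicate 1 or 3 or TNF-α replicate 2 or 3 (-0.29 to -0.23, edgeR adjusted p 0.0828 to 0.156). *SETD3* and *SETD4* passed in neither cell type.

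Of 10 further JmjC genes outside the naming rule, 0 passed in promyelocytes with edgeR (1 was lower at an unadjusted p under 0.05, and 0 passed with DESeq2). Of all tested genes 8.15% rose and 6.65% fell in promyelocytes. In granulocytes 4 rose and 2 fell of the 9 tested, against 24.4% and 24.8%. The ribosomal oxygenase genes *RIOX1* and *RIOX2* moved apart there, with *RIOX1* up by 0.42 (edgeR adjusted p = 0.00138) and *RIOX2* down to 18.3 ± 1.13 from 27 ± 0.922 CPM (log2 fold change -0.56, edgeR adjusted p = 4.03e-08). *JMJD6* rose by 0.34 (edgeR adjusted p = 6.29e-06), and *HIF1AN*, an asparagine hydroxylase gene, fell by 0.13 on the log2 scale (edgeR adjusted p = 0.0242).

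Whether the 2 cell types responded differently was tested gene by gene as the interaction over all 12 libraries. Of 43 genes, 17 passed: 13 with the response higher in granulocytes, against 14.1% of all 18124 tested genes, and 4 with it lower, against 9.88%. This split of 13 to 4 was 10 to 6 with DESeq2 size factors, 9 to 6 without the expression filter, 11 to 6 with DESeq2, 10 to 5 with GC and length trends removed and 9 to 2 with the replicate block. The split over all genes moved too, from 2561 higher and 1790 lower to 2128 and 2266 with DESeq2 size factors, 1991 and 2518 without the filter, 1942 and 2299 with DESeq2, 2153 and 2238 with the trends removed, and 2034 and 1315 with the block. The 4 genes with the lower response in granulocytes were *EHMT2*, *KDM4A*, *KDM5A* and *KDM6A*. Without 1 library 12 to 19 of the 43 passed, and for 10 of the 17 the call held without each library in turn. Those 10 were *DOT1L*, *EHMT2*, *EZH2*, *KDM2A*, *KDM4A*, *KDM5B*, *KDM6B*, *KMT2B*, *KMT2D* and *SETD1B*. With GC and length trends removed, 11 of the 17 calls remained, and those of *KDM5C*, *KDM6A*, *KDM6B*, *KMT2D*, *SETD1A* and *SETD1B* ended, while 4 were gained, those of *KDM3A*, *KDM3B*, *KMT2C* and *KMT2E*.

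Of the 15 calls in promyelocytes, 9 held without each library in turn. The 8 that rose became 5 without vehicle replicate 2 and 5 without TNF-α replicate 1, and the 7 that fell became 4 without vehicle replicate 2. Of the 24 calls in granulocytes, 19 held without each library in turn, and without 1 library 14 to 17 genes rose and 7 to 9 fell.

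The responses were also set beside GC content, without a test of the correlations. Exon GC of the family ran from 38.7% to 64.3%, and its correlation with the log2 fold change across genes was -0.249 in promyelocytes (43 genes) and 0.205 in granulocytes (42 genes). Over all tested genes with a mean log2 CPM above 1 it was -0.156 and 0.110. All these genes share the same libraries and genes are not independent replicates. After spline trends with GC and length over all genes were taken out, the family's correlations with GC were -0.0253 and 0.0368. Its correlations with log2 exon length were -0.0265 and 0.253 as counted and -0.0216 and 0.254 after this removal. The same 15 genes were then called in promyelocytes. In granulocytes the split went from 14 up and 10 down to 15 up and 16 down, with 22 of the 24 calls shared. Over all genes it went from 4135 up and 4209 down to 3809 up and 4770 down. The calls that ended were *KMT2D* and *SETD9*, and the 9 that were added were *KDM7A* and *SETD4*, which rose, and *KDM2B*, *KDM4B*, *KMT5C*, *SETD1B*, *SETD6*, *SETD7* and *SUV39H1*, which fell. *DOT1L* then stood at 1.59, *KDM6B* at 0.76 and *EHMT2* at -0.93. The part of GC content in these responses was not tested beyond this.

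**Figure D3:**
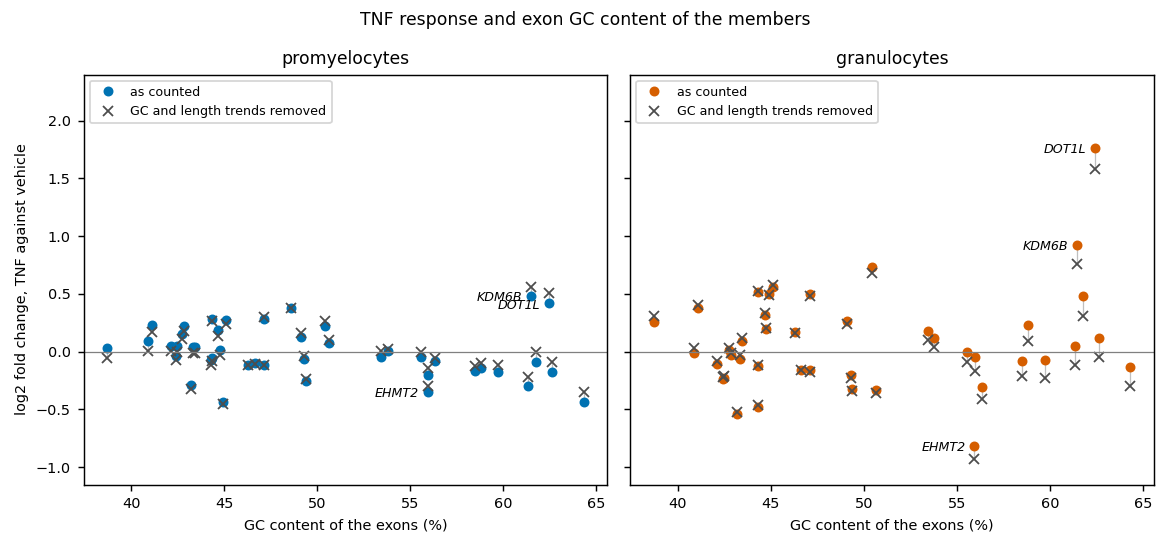
Log2 fold change of TNF-α against vehicle (y axis) against the GC content of each gene's exons in percent (x axis), in promyelocytes (left) and granulocytes (right). Coloured circles are the values as counted, grey crosses the values after the trends with GC content and length over all genes were removed, and a grey line joins the 2 values of a gene. In granulocytes the GC-rich *DOT1L* moves from 1.77 to 1.59 and *KDM6B* from 0.93 to 0.76.

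Other gene groups moved at the same time. Of 17 cell cycle genes, 2 rose and 0 fell in promyelocytes with edgeR (0 fell at an unadjusted p under 0.05 and 0 with DESeq2), against 8.15% and 6.65% of all tested genes. In granulocytes 2 rose and 12 fell, against 24.4% and 24.8%. The mitotic kinase gene *BUB1* fell there by 0.37 (edgeR adjusted p = 7.98e-08) and the ribonucleotide reductase gene *RRM2* rose by 0.33 in promyelocytes (edgeR adjusted p = 0.000329) and 0.18 in granulocytes (edgeR adjusted p = 0.0101). As counted, *CDK1* rose in promyelocytes (0.22, edgeR adjusted p = 0.0303) and fell in granulocytes (-0.20, edgeR adjusted p = 0.00566). The authors reported the same directions by RT-qPCR on a repeat of the experiment. With GC and length trends removed, the *CDK1* rise in promyelocytes ended (0.07, edgeR adjusted p = 0.455). In granulocytes the *CDK1* fall (-0.10, edgeR adjusted p = 0.0617) and the *MCM7* rise (0.02, edgeR adjusted p = 0.619) ended, and a fall of *MCM5* was gained (-0.16, edgeR adjusted p = 0.00079). Summed promyelocyte markers went from 7339 to 8167 CPM with vehicle to 6084 to 6984 CPM with TNF-α in promyelocytes, and were at 2144 to 2357 and 2156 to 2364 CPM in granulocytes. Summed granulocyte markers went from 331 to 347 CPM to 421 to 432 CPM with TNF-α in promyelocytes and from 5922 to 6190 CPM to 6565 to 6951 CPM in granulocytes. Of the 12 markers, 2 rose and 2 fell in promyelocytes, against 8.15% and 6.65% of all tested genes. In granulocytes 4 rose and 4 fell, against 24.4% and 24.8%. Among those that rose, *CYBB* went from 112 to 218 CPM in promyelocytes and *NCF1* from 1223 to 1940 CPM in granulocytes. Among those that fell, *CSF3R* went from 21.5 to 15.8 CPM in promyelocytes and *LCP2* from 337 to 202 CPM in granulocytes. In granulocytes *CYBB* was at 2117 CPM with vehicle and 2116 CPM with TNF-α. Summed macrophage markers went from 49.1 to 51.3 CPM to 30.1 to 33.8 CPM in granulocytes with TNF-α, nearly all of it *CSF1R* (49.9 ± 0.986 and 32.0 ± 2.06 CPM), with the other 5 markers at a mean of at most 0.308 CPM. Summed lymphoid markers were between 13.5 and 23.3 CPM in all libraries, with *MS4A1* at 0. The part of these shifts in the responses of the methyltransferase and demethylase genes was not tested.

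Levels can be compared between genes only per length, so read pairs scaled by exon length and library size (RPKM) were used. In promyelocytes with vehicle 41 of the 45 genes shown were above 1 RPKM, with a median of 11.8, and in granulocytes with vehicle 41, with a median of 9.26. *KDM1A* led in promyelocytes with 31.9 ± 1.06 RPKM, ahead of *KMT2D* (26.1 ± 0.973), *EZH2* (22.9 ± 1.00) and *SUV39H2* (18.8 ± 0.468). In granulocytes *KMT2C* led with 31.1 ± 1.65 RPKM, ahead of *KMT2D* (24.9 ± 2.25), *KDM5A* (20.2 ± 0.418) and *SETD1B* (19.8 ± 1.48). Most neighbours in these orders overlapped: the libraries of 14 neighbouring pairs were apart in promyelocytes and those of 14 in granulocytes.

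**Figure D4:**
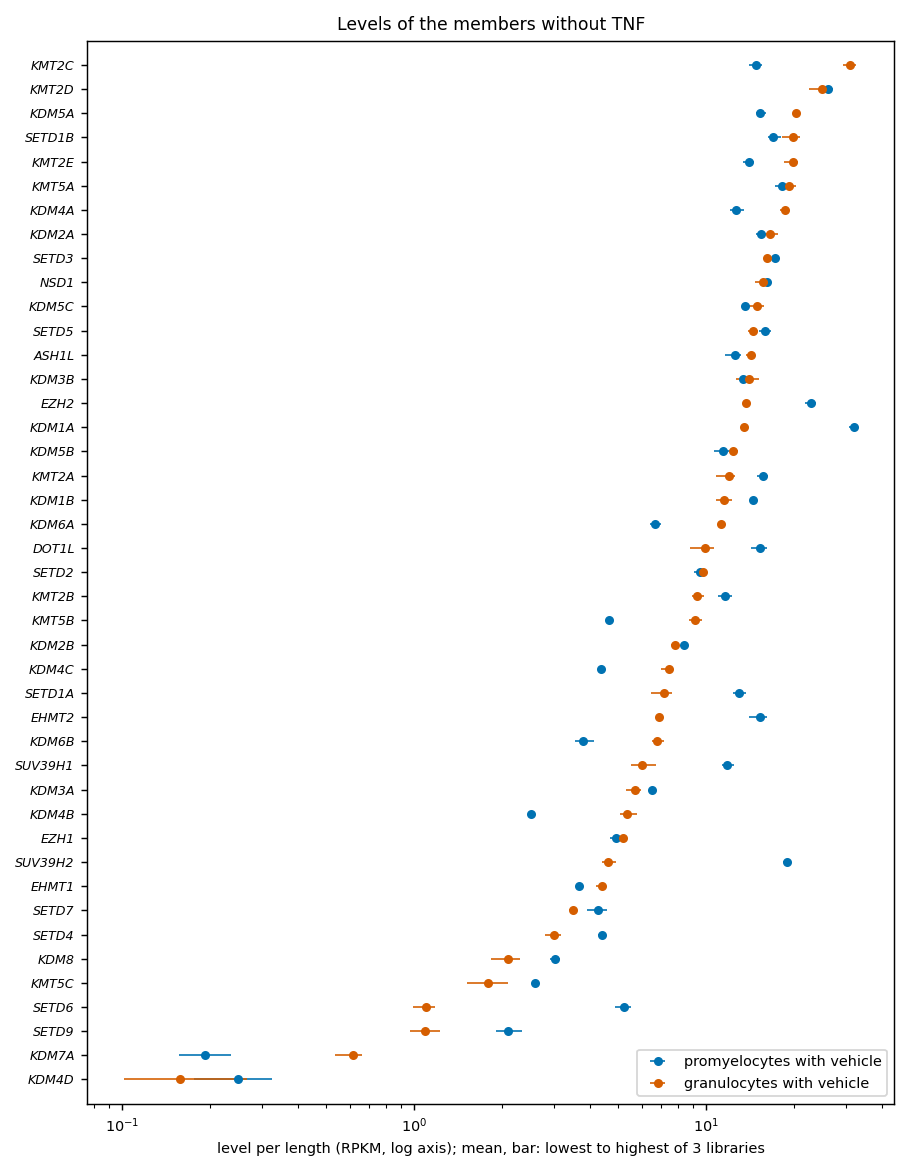
Level per length (RPKM, x axis, logarithmic) of each gene with a value above 0 (y axis, ordered by the level in granulocytes) in promyelocytes (blue) and granulocytes (orange) with vehicle. Points are means of 3 libraries and bars run from the lowest to the highest library. *SUV39H2*, *SETD6* and *KDM1A* have their granulocyte point well to the left of the promyelocyte point, and *KDM7A* well to the right.

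Side by side and without a test, *SETD6* was at 5.23 ± 0.324 RPKM in promyelocytes and 1.10 ± 0.0948 RPKM in granulocytes with vehicle, *SUV39H2* at 18.8 ± 0.468 and 4.60 ± 0.285, and *KDM1A* at 31.9 ± 1.06 and 13.4 ± 0.221. *KDM7A* was at 0.192 ± 0.0405 and 0.617 ± 0.0723 RPKM. With TNF-α *DOT1L* moved from rank 13 to rank 4 of the levels in promyelocytes and from rank 21 to rank 2 in granulocytes. *EHMT2* moved from rank 14 to 21 and from rank 28 to 34.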

How the data were processed

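RNA was sequenced from 12 flasks of HL-60/S4 cells, 3 in each of 4 groups. The authors aligned read pairs to hg38 with STAR 2.5.3a and counted those on the reverse strand of GENCODE 27 genes with featureCounts 1.5.2, and the deposited values are these raw counts per gene. Multi-mapping pairs were counted at their primary alignment. Symbols and gene types came from a later GENCODE annotation (57532 of 58288 genes matched), and 17 symbols of the naming pattern that were not protein-coding were left out.

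Counts were tested with edgeR 4.0.16 (R 4.3.3; TMM scaling, filterByExpr with a minimum count of 10, quasi-likelihood test, Benjamini-Hochberg adjustment over all genes tested, threshold 0.05), in each cell type separately and, for the interaction, over all 12 libraries. CPM of single genes used TMM library sizes within each cell type. RPKM and summed markers used TMM library sizes over all 12 libraries. DESeq2 1.42.0, other scalings and filters, a replicate block, 1 fit of all libraries, fits without each library and removal of GC and length trends (splines with 5 degrees of freedom) were alternatives. The tests were checked on simulated counts. Genes given library by library were those called in both cell types, the 6 called genes with the largest change in each direction and cell type, and the 5 with the lowest interaction p. Of the other lists up to 2 called genes per direction are named. The genes and lists were chosen with earlier results of these data known. Replicates are flasks of 1 line, so p-values measure the spread between flasks. Levels of the Y-linked *KDM5D* are not printed.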

Additional observations from a re-analysis of the deposited data

Results flagged for a closer look

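For 17 genes the response to TNF-α differed between the cell types by the interaction test of edgeR over 12 libraries. Each value below is the log2 response in granulocytes minus that in promyelocytes, with the adjusted p. The difference was 1.39 for *DOT1L* (edgeR adjusted p = 3.98e-10), 0.97 for *KDM5B* (1.99e-10), 0.61 for *KMT2B* (8.3e-06), 0.55 for *KDM2A* (1.41e-05), 0.32 for *EZH2* (0.00316), -0.43 for *EHMT2* (0.00112) and -0.36 for *KDM4A* (0.0011). These 7 passed under each alternative run and without each library in turn. It was 0.48 for *KDM6B* (edgeR adjusted p = 0.00343), 0.41 for *KMT2D* (0.00602) and 0.39 for *SETD1B* (0.00707), which passed without each library and not with GC and length trends removed.

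The other 7 calls ended without 1 library. *KDM5C* differed by 0.27 (edgeR adjusted p = 0.0132), and by 0.21 (0.0729) without granulocyte vehicle replicate 1. *ASH1L* differed by 0.27 (edgeR adjusted p = 0.0139) and *SETD5* by 0.26 (0.0147). Without granulocyte vehicle replicate 1 these were 0.23 (edgeR adjusted p = 0.0612) and 0.21 (0.0686), and without promyelocyte vehicle replicate 2 they were 0.24 (0.0525) and 0.22 (0.0583). *SETD4* differed by 0.32 (edgeR adjusted p = 0.0172), by 0.26 (0.0651) without granulocyte vehicle replicate 3 and by 0.30 (0.054) without granulocyte TNF-α replicate 2. *KDM5A* differed by -0.23 (edgeR adjusted p = 0.0195), and by -0.22 to -0.19 (0.0558 to 0.0667) without granulocyte vehicle replicate 2, promyelocyte vehicle replicate 2 or promyelocyte TNF-α replicate 1. *SETD1A* differed by 0.33 (edgeR adjusted p = 0.0255), and by 0.24 to 0.30 (0.0505 to 0.114) without granulocyte vehicle replicate 1, granulocyte TNF-α replicate 1, promyelocyte vehicle replicate 2 or promyelocyte TNF-α replicate 1 or 2. *KDM6A* differed by -0.21 (edgeR adjusted p = 0.0485), and its call was kept only without promyelocyte vehicle replicate 3, promyelocyte TNF-α replicate 3 or granulocyte TNF-α replicate 3. The cell types came from separate experiments, so cell type and experiment cannot be told apart in these differences.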

How the results depend on the processing

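Of the recomputed log2 fold changes of the genes given library by library, 391 kept their direction and their side of the threshold, 5 not called either way changed sign without 1 library (at -0.02 to 0.02), 30 lost the call, 5 gained one and 1 reversed, *SETD1B* in granulocytes, at -0.12 with GC and length trends removed. With those trends removed 16 genes fell in granulocytes in place of 10, and over all genes 4770 in place of 4209. Without 1 library the genes that rose and fell in promyelocytes numbered 5 to 8 and 4 to 10, in granulocytes 14 to 17 and 7 to 9, and the interactions 12 to 19. The causes were not tested. Replicate numbers did not pair the samples: correlations of same-numbered deviations were -0.293, -0.157 and -0.234 in promyelocytes and -0.123, -0.00757 and -0.167 in granulocytes. With the replicate block 6 genes rose and 5 fell in promyelocytes, 14 rose and 9 fell in granulocytes, and 11 interactions passed in place of 17 (9 higher, 2 lower). The calls that ended with the block were *KDM2A*, *KDM2B*, *KDM6A* and *SETD6* in promyelocytes and *SETD9* in granulocytes. Counts were lowest for *KDM4D* (3 to 43 per library), *SETD9* (35 to 194) and *KDM7A* (40 to 208), and the part of depth in their results was not tested. Most smaller changes rest on 3 flasks a group.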

Other observations

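Noncoding genes that carry the names of these enzymes were left out of the counts above. *KDM4A-AS1*, a long noncoding RNA gene antisense to *KDM4A* (chr1:43699765-43708138, minus strand, hg38), was at 3.48, 3.96 and 4.41 CPM in promyelocytes with vehicle and at 5.4, 5.85 and 6.45 CPM with TNF-α. Granulocytes had 0.577, 0.701 and 0.776 CPM with vehicle and 1.79, 2.43 and 2.26 CPM with TNF-α. The groups did not overlap in either cell type, and the RNA rose in both, by 0.58 (edgeR adjusted p = 0.0097) and 1.65 on the log2 scale (edgeR adjusted p = 5.21e-06), a difference of 1.10 (edgeR adjusted p = 0.00398). *KDM4A* itself fell in granulocytes and passed no test in promyelocytes, and the counting used strand. *KMT5AP3*, a processed pseudogene of *KMT5A*, fell in granulocytes from 1.42 ± 0.231 to 0.652 ± 0.199 CPM (log2 fold change -1.14, edgeR adjusted p = 0.00352), where its parent gene, with which it can share reads, had a log2 fold change of 0.00 (95% interval -0.10 to 0.11).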
